A study of Homo sapiens with 52 samples.

Results

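Cytoplasmic ribosomal protein (RP) genes encode the proteins that, with ribosomal RNA, build the large and small subunits of the ribosome. The members are the gene names made of RPL, RPS or RPLP, a number and at most a short suffix whose mean TPM (transcript abundance scaled to a fixed total) was 10 or more over the 4 DMSO samples of a compound screen. Of 83 matching names 77 met this level, out of 27043 gene names in each table, and all 77 passed the filter used for the tests (TPM reaching 1 in no fewer than 2 of 52 samples). The members were thus chosen by their DMSO levels, and those levels are given as a description.

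RNA-seq was carried out on fusion-positive rhabdomyosarcoma (FP-RMS) cells, a childhood tumour of the muscle lineage driven by the PAX3-FOXO1 fusion. The screen set 20 compounds, each sampled once at a high and once at a low dose, beside 2 DMSO (solvent) samples at 0.2% for the high and 2 at 0.1% for the low dose, all at 6 h. Doses were 10 and 1 µM, or 5 and 0.5 µM for Cpd50, GSKJ4 and LAQ824. In a separate experiment N1302, an inhibitor of histone deacetylases (HDACs), was given at 1 µM for 6 h with 1 DMSO sample, and in a time course the HDAC1/2/3 inhibitor entinostat at 1 µM and DMSO were sampled at 1, 6 and 24 h, with 1 sample each. All samples were cultured line cells, and the labels name no genetic change made for the experiment. Screen samples are titled RH41 but carry RH4 as their cell line, both FP-RMS lines, so the screen's levels were not compared with those of the other experiments. Of the genes listed for FP-RMS and the muscle lineage, CDH3 was low in screen DMSO (0.323 TPM, at most 2.39 TPM over the 52 samples). The others lay between 25.6 TPM (NOS1) and 940 TPM (FGFR4). The muscle-lineage genes MYOD1 (644 TPM) and MYOG (578 TPM) were present in screen DMSO, where the blood markers PTPRC and HBB were at 0. Of the 3 fibroblast markers COL1A1 was at 96.4 TPM there and ran from 6.17 to 436 TPM over the 52 samples, whereas DCN (2.12 TPM) and LUM (0.16 TPM) were low, and their part in the results was not tested. Approximate depth, worked out from the TPM values, was 5737939 to 41415071 reads per sample.

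RP mRNAs are among the most abundant and stable mRNAs of a growing cell, whereas many transcription factor mRNAs are short-lived. They typically begin with a terminal oligopyrimidine (TOP) tract, an unbroken run of C and T that opens with C at the first base and through which their translation is regulated together. TPM is a share of a fixed total, so a gain in the RP share and a loss of other mRNAs cannot be told apart, nor can fewer cells and less RNA per cell.

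The start sites show the tract that most members share and the paralog copies, most of which lack it. Each line gives 10 bases before and 20 from an annotated start (RefSeq, GRCh38.p14), 5′ to 3′, and capitals mark the unbroken C and T run from the first transcribed base where that base is a C. RPLP0 and RPL28 to RPS19 are genes the results turn on, RPS6 and RPL13A are added as typical of each subunit, and RPL22, RPS27 and RPL26 are followed by their copies, with RPL7L1, the copy of RPL7, last. The windows are RPLP0 chr12:120201092-120201121 (minus strand), RPS6 chr9:19380217-19380246 (minus strand), RPL13A chr19:49487598-49487627 (plus strand), RPL28 chr19:55385922-55385951 (plus strand), RPL29 chr3:51995876-51995905 (minus strand), RPL39 chrX:119791611-119791640 (minus strand), RPS19 chr19:41860245-41860274 (plus strand), RPL22 chr1:6199576-6199605 (minus strand), RPL22L1 chr3:170870176-170870205 (minus strand), RPS27 chr1:153990752-153990781 (plus strand), RPS27L chr15:63157458-63157487 (minus strand), RPL26 chr17:8383174-8383203 (minus strand), RPL26L1 chr5:172958719-172958748 (plus strand) and RPL7L1 chr6:42879606-42879635 (plus strand).
RPLP0: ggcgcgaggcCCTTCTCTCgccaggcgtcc
RPS6: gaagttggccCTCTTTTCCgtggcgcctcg
RPL13A: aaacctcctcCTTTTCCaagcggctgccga
RPL28: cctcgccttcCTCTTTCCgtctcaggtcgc
RPL29: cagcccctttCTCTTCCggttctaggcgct
RPL39: ccgccagcttCCCTCCTCTTCCTTTCTCCg
RPS19: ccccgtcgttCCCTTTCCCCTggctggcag
RPL22: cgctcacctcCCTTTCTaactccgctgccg
RPL22L1: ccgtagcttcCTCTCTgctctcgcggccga
RPS27: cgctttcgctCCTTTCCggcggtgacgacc
RPS27L: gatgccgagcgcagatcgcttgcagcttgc
RPL26: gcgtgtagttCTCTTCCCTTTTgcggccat
RPL26L1: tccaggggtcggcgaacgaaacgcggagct
RPL7L1: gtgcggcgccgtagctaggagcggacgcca

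RPL22L1 carried a run of 6 bases, whereas RPS27L, RPL26L1 and RPL7L1 had none at the start shown. Starts were matched in RefSeq for 62 of the 77 members, and 43 of the 62 (69.4%) had a C followed by 4 or more C or T. The same opening was found in 13 of 15 other TOP mRNAs (86.7%), 6 of 69 mitochondrial RP genes (8.70%) and 1404 of 27305 genes of the RefSeq table (5.14%). Over the 300 bases from 250 before to 50 after the start, both strands searched, the ETS motif CCGGAAG was present in 23 of 62 members (37.1%) and 12.2% of all genes. The YY1 motif AAGATGGC was present in 9.68% of members and 3.52% of all genes, the E-box CACGTG in 8.06% and 8.77%, and the TATA box TATAAA in 9.68% and 14% of them. These are matches of letters only.

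In screen DMSO 53 members had a mean of at least 1000 TPM, 18 lay between 100 and 1000 TPM and 6 below 100 TPM, with a median of 1706 TPM. Among the highest were RPLP1, an acidic protein of the ribosomal stalk (5751 TPM; hg19 chromosome 15, 69745159 to 69747884) and RPL7A (4446 TPM). Among the lowest were RPS10 (10.9 TPM), just inside the level, and the copy RPL22L1 (26.4 TPM). Just outside lay the copy RPL39L (7.81 TPM) and RPL36A (4.47 TPM), then RPL3L (0.183 TPM), RPS18 (0.113 TPM), RPL21 (0.108 TPM) and RPL10L (0 TPM). RPS10, RPL17, RPL36A, RPS18 and RPL21 are core ribosome components, but their values stood far below the members' median. The rows of RPS10, RPL17 and RPL36A overlap readthrough rows (RPS10-NUDT3, RPL17-C18orf32, RPL36A-HNRNPH2), so their reads could have been split in counting and their values are uncertain. RPS10 rested on only 7 to 531 reads per sample.

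The 77 members, 0.285% of gene names, held 15.0% and 14.7% of total TPM in the 0.2% DMSO samples and 14.7% and 14.4% in the 0.1% DMSO samples. Once flow cell and concentration were allowed for, the DMSO samples differed by 1.02 times the variance of counting noise over 10378 genes, so the 2 samples of a concentration were counted as 1 sample, which gave 14.7% ± 0.169 (SD, n = 2 concentrations). In the 40 treated samples the share ran from 10.7% (GSKLSD1, low dose) through a median of 14.5% to 18.8% (bromosporin, high dose). The mean log2 change of the members against DMSO of the matching concentration, on the log2(TPM + 1) scale used throughout, ran from -0.45 to 0.28 and lay within 0.1 of 0 in 23 of the 40 samples.

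**Figure D1:**
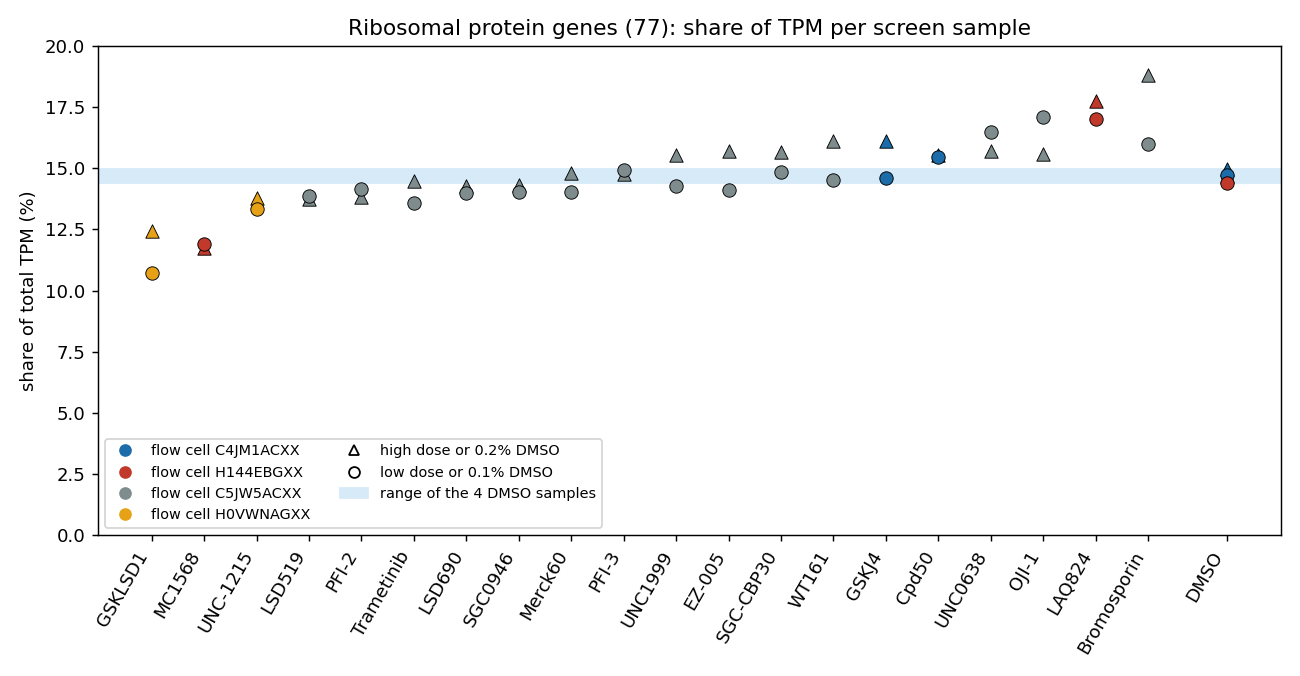
Share of total TPM (%, vertical axis) held by the 77 RP genes in each screen sample, by compound. Triangles are high doses or 0.2% DMSO, circles low doses or 0.1% DMSO, colours flow-cell codes and the band the range of the 4 DMSO samples (14.4% to 15.0%); GSKLSD1 and MC1568 lie lowest (10.7% to 12.4%) and the high dose of bromosporin highest (18.8%).

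Each compound was set against the same 4 DMSO samples with limma, and a member was called at an adjusted p below 0.05 over 16359 genes. Of 1540 member tests 192 were called higher and 206 lower, and 8 of these calls reached 2-fold. Over all genes 21543 of 327180 tests were called higher and 19921 lower. All tests against the 4 DMSO samples took them as separate, although the 2 of a concentration were counted as 1 above. Their adjusted p-values thus rest on more controls than that count allows. With DMSO averaged per concentration 126 lower calls were made, with 42 higher for LAQ824, 41 higher for bromosporin, 47 lower for MC1568 and 37 lower for GSKLSD1. Flow cell moved with many of the calls. DMSO replicates 1 carried the flow-cell code C4JM1ACXX and replicates 2 the code H144EBGXX, whereas 14 compounds carried C5JW5ACXX, and GSKLSD1 and UNC-1215 carried H0VWNAGXX, without DMSO. Each comparison was therefore repeated within the code, against its DMSO or, where it held none, against the other compounds on it, and 84 higher and 66 lower calls were then made. LAQ824, MC1568 and bromosporin held most of these. The shares of all genes called within the code stand beside each compound's counts below. Where a code held no DMSO, the other compounds' own changes entered the reference and its spread. A call not made there does not show that a change was absent.

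**Figure D2:**
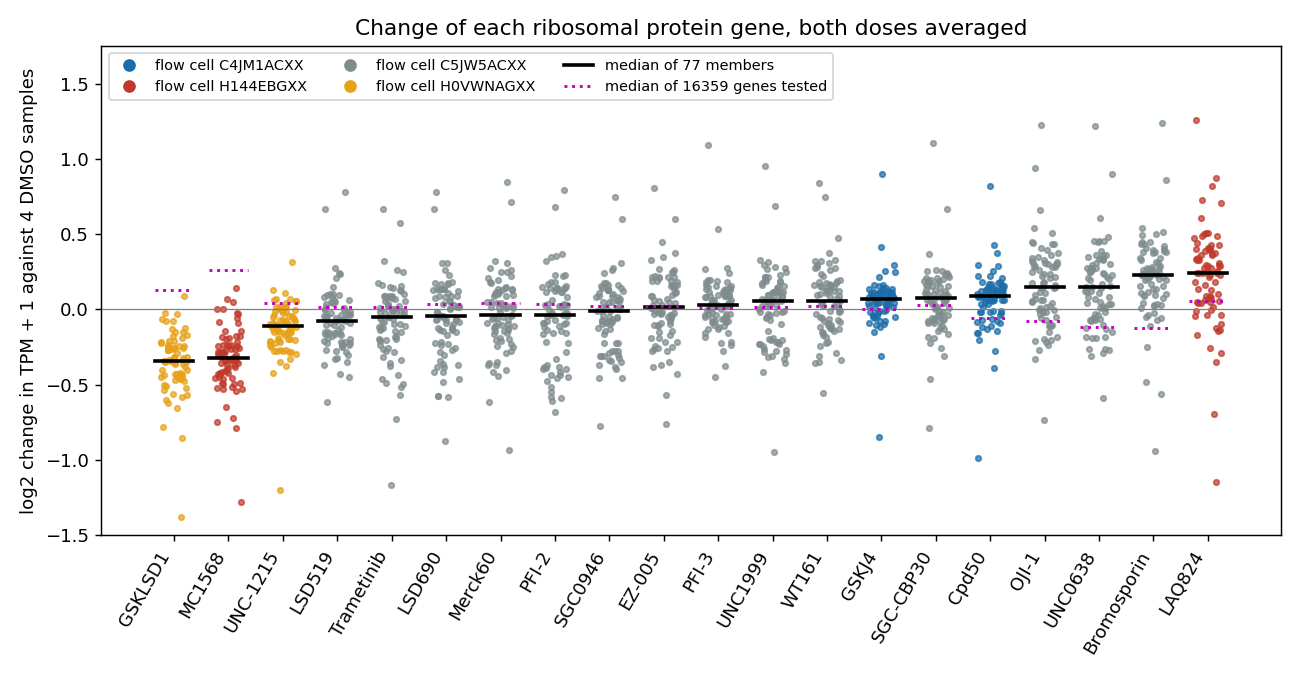
Log2 change in TPM + 1 against the 4 DMSO samples (vertical axis), both doses averaged, of each of the 77 RP genes under each compound. Points are genes coloured by flow-cell code, black lines their medians and dotted lines the medians of 16359 genes; the RP median is lowest under GSKLSD1 (-0.35) and MC1568 (-0.32) and highest under LAQ824 (0.24).

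Under LAQ824, an HDAC inhibitor, more RP genes rose than fell. Of the 77 members 43 (55.8%) were called higher and 5 (6.49%) lower, where 32.4% and 28.1% of all genes were. Their median log2 change was 0.24, beside 0.06 for all genes, and their share was 17.7% at 5 µM and 17.0% at 0.5 µM. Within the flow-cell code 47 were called higher and 3 lower (35.4% and 32.9% of all genes). Among those lower against all 4 DMSO samples were RPL7L1, RPL22L1, RPL4 and RPL6, the last pair of these named after their values were seen and not called within the code.

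RPL28, a large-subunit protein (hg19 chromosome 19, 55897300 to 55903451), had 268, 263, 259 and 258 TPM in DMSO (0.2% replicates 1 and 2, then 0.1% replicates 1 and 2, as in the values that follow) and 471 and 488 TPM under LAQ824 at the high and low dose. Both treated values lay above every control, with a log2 change of 0.87 ± 0.11 (SE, adjusted p = 1.8e-07). Of the stalk proteins, which recruit translation factors, RPLP2 (hg19 chromosome 11, 809936 to 812876) had 2401, 2617, 2517 and 2647 TPM in DMSO and 3847 and 3915 TPM under LAQ824, a rise of 0.61 (adjusted p = 4.1e-07). RPLP1 rose by 0.44 (adjusted p = 1.5e-04), and RPLP0 changed by 0.18 (adjusted p = 0.11; 0.23 and 0.016 within the code). The uncertain rows RPS10 (1.25) and RPL17 (0.82) were also called higher.

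Paralog copies are genes related in sequence to a core RP gene, and 2 of the 4 among the members were called lower under LAQ824. RPL7L1 (hg19 chromosome 6, 42847354 to 42857634) had 93.3, 86.3, 90.2 and 88.5 TPM in DMSO and 54.3 and 55.6 TPM under LAQ824. It fell by 0.70 ± 0.12 (SE, adjusted p = 1.0e-05; 0.0018 within the code), while RPL7 rose by 0.29 (adjusted p = 0.0017). Both RPL7L1 samples lay below every control. RPL22L1 fell by 0.35 (adjusted p = 0.017) and RPL22 rose by 0.22 (adjusted p = 0.0067), both also called within the code. RPL26L1 changed by -0.29 (adjusted p = 0.079) and RPS27L by 0.29 (adjusted p = 0.053), but within the code RPL26L1 was called lower (-0.28, adjusted p = 0.041) and RPS27L higher (0.21, adjusted p = 0.029). With DMSO averaged per concentration RPL22L1 was not called (adjusted p = 0.052; 0.072 with median-ratio scaling), and differences between copy and parent were not tested. RPL3L, the striated-muscle copy of RPL3 and below the level for members, had 0.199, 0.0798, 0.214 and 0.241 TPM in DMSO and 5.24 and 8.06 TPM under LAQ824, a rise of 2.67 ± 0.21 (SE, adjusted p = 1.4e-10; 3.9e-04 within the code), and RPL3 rose by 0.36.

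Under MC1568, labelled as an HDAC4/5 inhibitor and carrying the same flow-cell code as LAQ824, RP genes fell. None was called higher and 60 (77.9%) were called lower, where 28.3% and 4.92% of all genes were. Their median was -0.32, beside 0.26 for all genes, and their share was 11.7% at 10 µM and 11.9% at 1 µM. Within the code the counts were again 0 and 60 (38.7% and 10.2% of all genes). The count depended on the scaling, since 53 were called lower with median-ratio scaling but 13 when samples were scaled to oxidative phosphorylation genes and 5 when scaled to proteasome genes.

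RPL41, a very short basic peptide of the large subunit (hg19 chromosome 12, 56510374 to 56511616), had 2209, 1589, 2190 and 1518 TPM in DMSO and 1041 and 1098 TPM under MC1568. RPL39, another very small large-subunit protein (hg19 chromosome X, 118920467 to 118925622), had 832, 519, 828.6 and 514 TPM in DMSO and 377 and 404 TPM under MC1568. In both genes DMSO replicates 1 lay above replicates 2, which are the separate flow-cell codes, and MC1568 lay below all. RPL41 fell by 0.79 (adjusted p = 1.4e-05) and, within the code, changed by -0.54 (adjusted p = 0.0078). RPL39 fell by 0.75 (adjusted p = 2.5e-04) and, within the code, changed by -0.40 (adjusted p = 0.0089). The copies RPL26L1 (-0.65), RPL22L1 (-0.37) and RPL7L1 (-0.33) were called lower together with their parents RPL26 (-0.49), RPL22 (-0.50) and RPL7 (-0.33), so copy and parent moved the same way here. Within the code RPL7 was not called (-0.28, adjusted p = 0.054) and RPS27L was called lower (-0.36, adjusted p = 0.013).

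Other genes of the translation machinery were read beside the members. Of all genes 32.4% were called higher and 28.1% lower under LAQ824 (35.4% and 32.9% within the code). Under MC1568 28.3% were higher and 4.92% lower (38.7% and 10.2% within the code). The ribosome biogenesis and short-lived counts under LAQ824 against all 4 DMSO samples lay near these shares. Of 22 other TOP mRNAs 1 rose and 9 fell under MC1568 (median -0.19), and 5 rose and 9 fell under LAQ824 (median -0.13). Under MC1568 the lowest were NPM1, a nucleolar chaperone (-0.65), and TPT1, the translationally controlled tumour protein (-0.57), and EEF1D, an elongation factor subunit, rose by 0.26. Of 77 mitochondrial RP genes 9 rose and 41 fell under LAQ824 (median -0.41), and 1 rose and 17 fell under MC1568 (median -0.30; 43 fell within the code), led by MRPL36 (-0.64) and MRPS35 (-0.59), with MRPS25 higher (0.61). Cytoplasmic and mitochondrial RP genes thus had opposite medians under LAQ824. Of 34 ribosome biogenesis genes 10 rose and 9 fell under LAQ824, whereas 13 fell and none rose under MC1568, led by RRS1 (-0.90) and PNO1 (-0.77). Outside translation, 2 of 75 oxidative phosphorylation genes rose (COX6B2, 1.69; COX6A1, 0.30) and 27 fell under MC1568 (lowest ATP5J2, -0.59, and NDUFA12, -0.58), with 5 and 42 within the code, and 14 of 35 proteasome genes fell (PSMC1, -0.46; PSMB6, -0.45). Of 25 short-lived mRNAs only CYR61 was called under MC1568 against all 4 DMSO samples (0.87), whereas 5 were higher and 4 lower within the code, and under LAQ824 7 rose and 7 fell (11 and 9 within the code).

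Under bromosporin, which binds bromodomains broadly, more RP genes rose than fell. Of the members 47 (61.0%) were called higher and 2 (2.60%) lower, where 16.5% and 29.5% of all genes were. The median was 0.23, beside -0.12 for all genes, and the share was 18.8% at 10 µM and 16% at 1 µM. Within the code, against the other 13 compounds, 34 were called higher and 1 lower (9.65% and 20.6% of all genes). With the low dose alone 23 were called higher.

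RPS12, a small-subunit protein (hg19 chromosome 6, 133135708 to 133138703), had 3734, 3820, 3558 and 3631 TPM in DMSO and 5963 and 4803 TPM under bromosporin. RPLP0, the stalk base (hg19 chromosome 12, 120634503 to 120639014), had 3222, 3010, 3200 and 3010 TPM in DMSO and 4995 and 3821 TPM under bromosporin. All treated values of both genes lay above the controls, with the high dose further away. RPS12 rose by 0.54 (adjusted p = 1.2e-04; 0.0059 within the code) and RPLP0 by 0.49 (adjusted p = 2.2e-04; 6.8e-04 within the code). RPL26L1 (hg19 chromosome 5, 172385732 to 172396774) had 113, 104, 110 and 116 TPM in DMSO and 55.5 and 99.8 TPM under bromosporin, a fall of which most lay at the high dose. It fell by 0.57 (adjusted p = 0.0019; 0.0063 within the code), while RPL26 rose by 0.28 (0.15 and not called within the code).

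The testis-enriched copy RPL39L, below the level for members, changed by -1.09 under bromosporin (adjusted p = 0.025; 0.024 within the code), from 6.93, 5.90, 8.59 and 9.80 TPM in DMSO to 1.80 and 4.96 TPM. Its parent RPL39 rose by 0.86, but by 0.14 without a call within the code (adjusted p = 0.29). The uncertain row RPL17 (-0.94) was not called within the code either. Of 77 mitochondrial RP genes 2 rose and 51 fell (median -0.53), where 16.5% and 29.5% of all genes did. Of 34 ribosome biogenesis genes 1 rose and 21 fell (median -0.51). Both medians were opposite to that of the cytoplasmic RP genes. Of the other TOP mRNAs 9 rose and 5 fell (5 and 4 within the code, where 9.65% and 20.6% of all genes did).

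GSKLSD1, an LSD1 inhibitor, had a share of 12.4% at 10 µM and 10.7% at 1 µM, the latter the lowest of the screen. None of the members was called higher and 51 (66.2%) were called lower, where 6.58% and 1.3% of all genes were. RPS29, a small-subunit protein, had 653, 628, 663 and 609 TPM in DMSO and 384 and 322 TPM under GSKLSD1 (-0.86, adjusted p = 6.8e-07), and RPL37A, a large-subunit protein, changed by -0.66. Against the 2 UNC-1215 samples on the same flow-cell code no member and no other gene was called (0% of all genes), with a median of -0.23 for the members. UNC-1215, directed at L3MBTL3, had no member called against DMSO (0.0672% of all genes higher and 0% lower) but shares of 13.8% and 13.3%, below every DMSO sample. Compound and flow cell cannot be told apart for GSKLSD1. The count also depended on the scaling, with 50 lower under median-ratio scaling but 4 when samples were scaled to oxidative phosphorylation genes and 9 when scaled to proteasome genes. RPS10 (-1.38) is uncertain.

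Most calls of the other compounds on C5JW5ACXX were not made within that code. UNC0638, a KMT1C inhibitor, had 29 higher and 6 lower (6.33% and 18.9% of all genes), and within the code (1.31% and 6.3% of all genes) only RPL24 was called (0.28, named after its value was seen). OJI-1, an HDAC8 inhibitor, had 21 higher and 1 lower (0.3% and 0.923% of all genes) and none within the code (0.0611% and 0.0795%), and 12 higher without 0.2% DMSO replicate 2, without 0.1% DMSO replicate 1 or without 0.1% DMSO replicate 2. WT161, an HDAC6 inhibitor, had 16 higher and 8 lower (23% and 18.8% of all genes) and within the code 2 and 2 (15.5% and 9.44% of all genes). Those lower within the code were again the copies RPL7L1 (-0.47, adjusted p = 0.0088; not called against DMSO averaged per concentration, adjusted p = 0.055) and RPL22L1 (-0.58, adjusted p = 0.024), and those higher were RPL28 (0.43) and the uncertain RPS10 (0.65). RPL22L1 had 15.5 and 19.9 TPM under WT161 against 26.5, 25.4, 25.8 and 27.8 TPM in DMSO, all treated values being lower.

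The remaining compounds of that code had at most 22 members called. PFI-2 had 5 higher and 17 lower (0.691% and 1.22% of all genes), LSD690 3 higher and 13 lower (2.67% and 1.36% of all genes) and Trametinib 2 higher and 12 lower (3.06% and 3.08% of all genes). EZ-005 had 7 higher and 5 lower (0.232% and 0.385% of all genes), SGC-CBP30 8 higher and 3 lower (3.73% and 6.11% of all genes) and SGC0946 1 higher and 8 lower (0.538% and 0.281% of all genes). Merck60 had 2 higher and 5 lower (0.245% and 0.403% of all genes), UNC1999 3 higher and 4 lower (0.251% and 0.538% of all genes), LSD519 1 higher and 5 lower (1.57% and 0.165% of all genes) and PFI-3 0 higher and 0 lower (0.0183% and 0.00611% of all genes). With other compounds as the reference within the code, calls lost to flow cell and calls hidden by that reference cannot be told apart. Within the code 11 of the 14 compounds had no member called, the exceptions being bromosporin, UNC0638 and WT161. For those not yet given, the genes called higher and lower within the code were 0.0183% and 0% of all genes for PFI-2, 0.0734% and 0% for LSD690, 0.599% and 0.336% for Trametinib, 0.0795% and 0% for EZ-005 and 0.0856% and 0.0183% for SGC-CBP30. They were 0.0978% and 0% for SGC0946, 0.128% and 0.00611% for Merck60, 0.0978% and 0% for UNC1999, 0.055% and 0% for LSD519 and 0.0917% and 0% for PFI-3. On C4JM1ACXX, Cpd50, a pan-Jumonji inhibitor, had 4 higher and 1 lower (5.22% and 5.73% of all genes), namely RPL39, RPL41, RPL22 and RPL23A against RPS10, and GSKJ4, directed at JMJD3 and UTX, had 0 higher and 0 lower (0% and 0.00611% of all genes). Neither had a member called against DMSO of its own code (7.78% and 10.1% of all genes for Cpd50 and 0.0672% and 0.0306% for GSKJ4).

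A shared pattern ran through the 14 compounds on C5JW5ACXX, whatever their target. RPL39 lay above DMSO under all 14 (0.53 to 0.94), as did RPL9 (0.14 to 0.66), and RPS19 (-0.58 to -0.05) and RPL8 (-0.51 to -0.03) lay below under all 14. In all, 18 members were above 0 and 6 below 0 under every one of them. The changes differed with base composition. The 25 members with the lowest G + C content (up to 45.2%) had a median of 0.14 over these compounds and the 25 with the highest (from 51.9%) a median of -0.18, against -0.04 and -0.10 under the other 6 compounds. Within the code RPL39 lay between -0.14 (SGC0946) and 0.22 (OJI-1) in the compounds where it had been called.

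**Figure D3:**
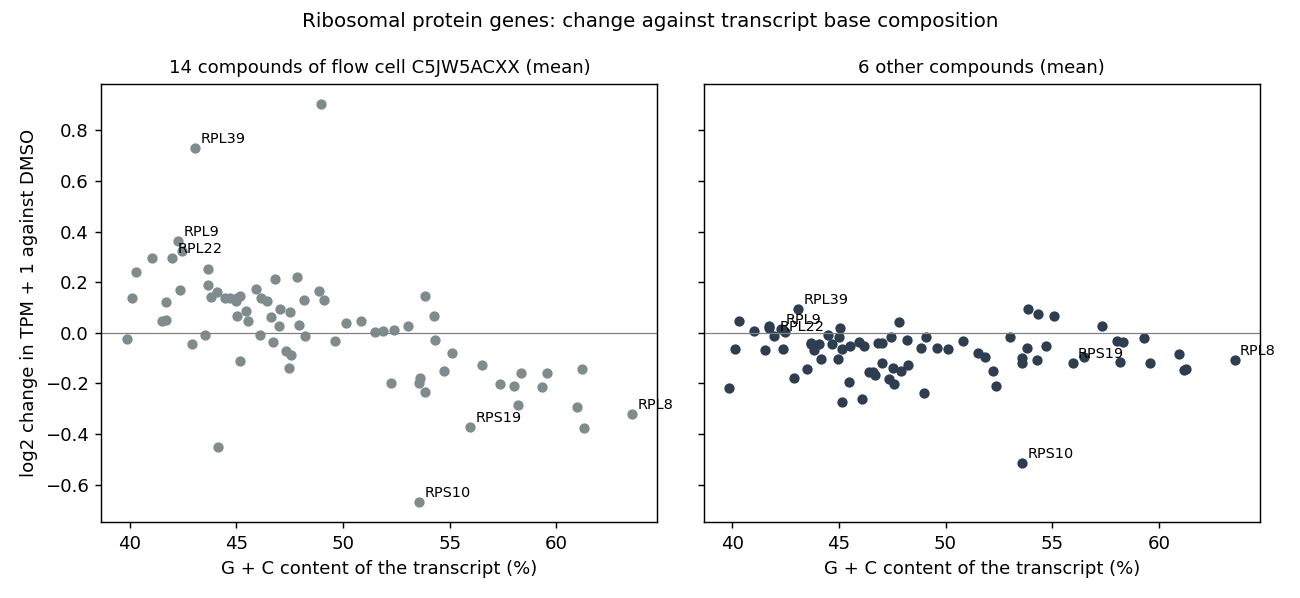
Mean log2 change in TPM + 1 against DMSO (vertical axis) of each of the 77 RP genes by G + C content of the transcript (%, horizontal axis), for the 14 compounds on C5JW5ACXX (left) and the other 6 (right). On the left RPL39 and RPL9 (43.1% and 42.3% G + C) lie above 0 and RPS19 and RPL8 (56.0% and 63.6%) below 0, and on the right the 25 genes of lowest and the 25 of highest G + C content have medians of -0.04 and -0.10.

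Over the 77 genes, which share libraries, Pearson's r of change with G + C content ran from -0.70 (PFI-2) to -0.14 (bromosporin) in the 14 compounds, was 0.22 under LAQ824 and 0.28 under MC1568, and lay between -0.28 and -0.23 under the other 4, inside the range of the 14. Over 13831 of the 16359 genes tested (84.5%) it ran from -0.54 to -0.05 in the 14. The part of base composition in the calls was not tested. Across the 20 compounds RPS10 and RPL39 were among the members that varied most (SD 0.56 and 0.39), and RPL29 and RPL4 among those that varied least (both SD 0.11). RPL29, a large-subunit protein, had 1330, 1210, 1334 and 1198 TPM in DMSO, and the 40 treated samples ran from 969 through a median of 1159 to 1410 TPM.

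Large and small subunit genes had medians close to each other. Under LAQ824 25 of 41 large-subunit and 16 of 29 small-subunit genes were higher (medians 0.24 and 0.25), and under bromosporin 27 and 18 (0.24 and 0.23). Of all genes 32.4% and 16.5% were higher under these compounds. Lower were 2 and 1 under LAQ824 (28.1% of all genes) and 1 and 0 under bromosporin (29.5%). Under MC1568 33 and 22 were lower (-0.32 and -0.34; 4.92% of all genes) and 0 and 0 higher (28.3%). The 4 copies among the members had medians of -0.32, -0.11 and -0.35 under LAQ824, bromosporin and MC1568. RPS4X, a small-subunit protein, changed by 0.44 under bromosporin (adjusted p = 4.6e-05), 0.05 under LAQ824 (adjusted p = 0.6) and -0.19 under MC1568 (adjusted p = 0.047, but 0.061 within the code). RPL10, a large-subunit protein, rose under bromosporin (0.38, adjusted p = 3.1e-04).

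Members varied together over the 44 screen samples. Pearson's r with the mean of the members, of which each is a part, was above 0.5 in 70 of 77, with a median of 0.79, and ran from -0.22 for RPL7L1 to 0.95 for RPL38. The 5 other genes most like that mean were LRRC75A-AS1 (r = 0.89), TPT1 (0.88), SNRPD2 (0.88), UQCRH (0.86) and SNHG5 (0.85). LRRC75A-AS1 and SNHG5 host small nucleolar RNAs, SNRPD2 is a core spliceosome protein and UQCRH a subunit of respiratory complex III.

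Compounds directed at acetylation (7) and methylation (11) were then compared as classes. The median difference of the members, acetylation minus methylation, was 0.08. No member was called by limma (0% of all genes in either direction; 0 members with the high doses alone, where 5.4% of all genes were higher and 4.47% lower), and 14 members and 5018 of all genes had an unadjusted p below 0.05. The acetylation class held both the rises under LAQ824 and bromosporin and the falls under MC1568. For the step from low to high dose limma called no member in the acetylation class (0% of all genes; 14 members and 2318 genes at an unadjusted p below 0.05) or the methylation class (0%; 24 members and 1932 genes). The mean change was higher at the high dose in 11 of 20 compounds, and high minus low ran from -0.17 (OJI-1) to 0.18 (GSKLSD1). Between 0.2% and 0.1% DMSO no member was called (0.00611% of all genes in each direction; 0 members and 95 genes at an unadjusted p below 0.05).

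Under N1302 the RP share was 21.7%, against 15.8% in its DMSO sample, and with 1 sample each there was no test. The mean log2 change was 0.42, with 71 of 77 members above 0, beside a median of -0.11 for all genes. Past 1.5-fold 24 members were higher and 1 lower, where 19.9% and 31.5% of all genes were. RPS15, a small-subunit protein, went from 702 to 2072 TPM, RPL13 from 190 to 465 TPM and RPLP2 from 2500 to 5257 TPM. The copies RPL7L1 (from 87.5 to 38.7 TPM), RPL22L1 (-0.35) and RPL26L1 (-0.32) were lower, as was RPL22 (-0.46), while RPS27L was higher (0.59). RPL3L went from 0.325 to 6.23 TPM.

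Under entinostat at 1 h the RP share was 17.7% against 17.8% in DMSO, and no member passed 1.5-fold (1.42% of all genes higher and 1.28% lower). At 6 h it was 19.5% against 17.4%, with 72 of 77 members above 0 and a mean of 0.14, and again none passed 1.5-fold (14.5% and 5.53%). At 24 h it was 17.3% against 17.2%, with a mean of -0.01, and 1 member was higher and 3 lower past 1.5-fold (28.2% and 16%). The SD over members grew from 0.10 at 6 h to 0.27 at 24 h, while the mean went from 0.14 to -0.01. RPS27L, a p53-responsive copy, went from 85.9 to 165 TPM, RPL7L1 from 102 to 60.8 TPM and RPL22L1 from 21.8 to 14.2 TPM. RPL30 and RPL22L1 (both -0.59) lay close to the limit. RPL3L, outside the members, went from 0.119 to 1.29 TPM at 6 h and from 0.354 to 23.2 TPM at 24 h. At 24 h 25 of 34 ribosome biogenesis and 26 of 77 mitochondrial RP genes were lower past 1.5-fold, and 17 of 25 short-lived mRNAs were higher.

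**Figure D4:**
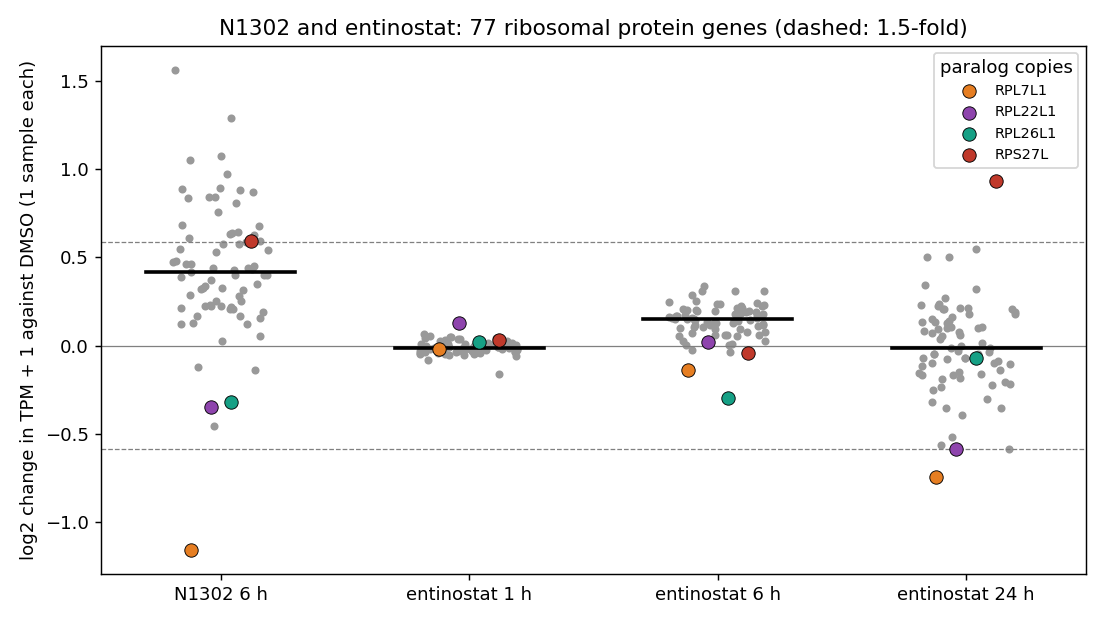
Log2 change in TPM + 1 against DMSO of the same experiment and time (vertical axis, 1 sample each) of the 77 RP genes under N1302 and under entinostat at 1, 6 and 24 h. Grey points are genes, coloured points the 4 paralog copies, black lines medians and dashed lines 1.5-fold; RPL7L1 is lowest under N1302 (-1.16) and at 24 h (-0.74), and RPS27L is highest at 24 h (0.93).

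The members were finally used as a yardstick, by scaling each sample to their mean log2 level and counting again the genes called with at least 2-fold. For LAQ824 this took the split from 2296 higher and 1914 lower (54.5% higher) to 1706 and 2531 (40.3% higher). This scaling shifts all genes of a sample by 1 amount, so the direction of each move follows from the members' own change by construction. Bromosporin went from 689 and 1501 to 465 and 2196, UNC0638 from 213 and 507 to 157 and 816, and WT161 from 897 and 850 to 806 and 941. MC1568 went from 1212 and 5 to 2924 and 2, and GSKLSD1 from 204 and 5 to 817 and 5. After this scaling the members centre on 0 by construction, with 26 higher and 26 lower under LAQ824. Median-ratio scaling over 6316 genes went the other way for LAQ824 (2540 and 1724) and bromosporin (875 and 1198, or 42.2% against 31.5% higher as deposited). It did so too for UNC0638 (295 and 368, or 44.5% against 29.6%), MC1568 (1131 and 5) and GSKLSD1 (142 and 8). For WT161 it went the same way as scaling to the members (832 and 890). Scaling to oxidative phosphorylation genes gave 1229 higher and 905 lower for bromosporin and 2498 and 1733 for LAQ824, and scaling to proteasome genes gave 1474 and 792 for bromosporin and 3377 and 1271 for LAQ824, so which side was larger under bromosporin depended on the scaling. Under median-ratio scaling 46 members were called higher for LAQ824 and 51 for bromosporin.

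**Figure D5:**
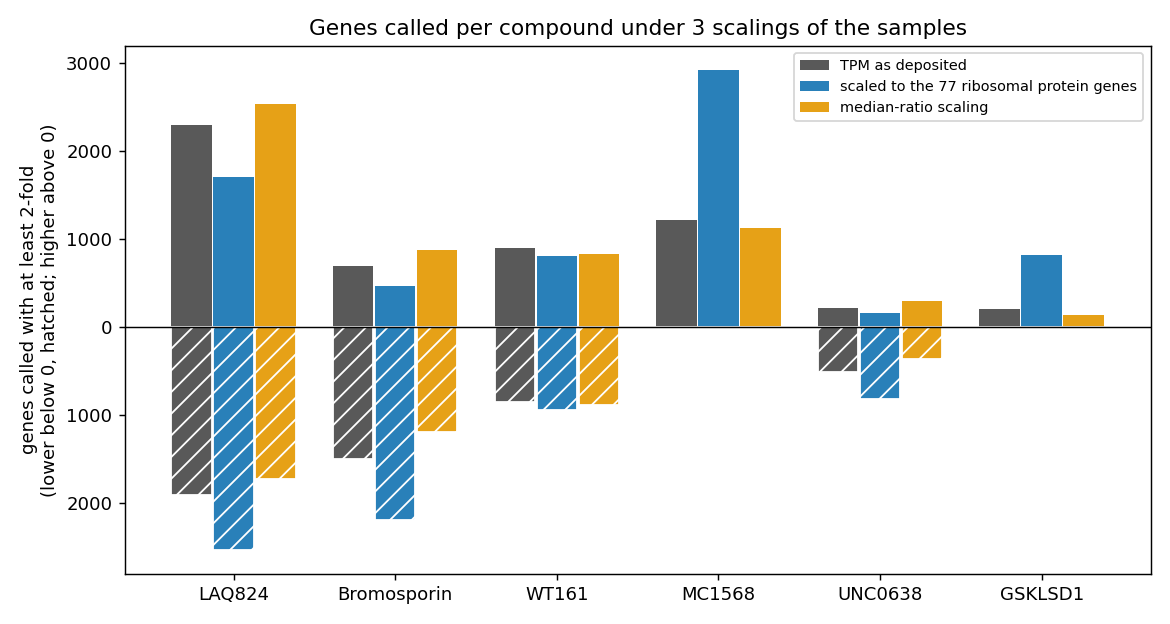
Number of genes called with at least 2-fold (vertical axis, higher above 0 and lower below 0, hatched) for 6 compounds, with TPM as deposited, scaled to the 77 RP genes and with median-ratio scaling. For LAQ824 the RP yardstick gives 1706 higher and 2531 lower, against 2296 and 1914 as deposited.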

How the data were processed

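The deposited values are TPM, 1 table for each of 52 samples. The paper's methods state that poly-A RNA was selected, reads were aligned to hg19 with STAR and TPM was computed with RSEM. Whether the deposited values came from that RSEM step was not checked. Replicates were not pooled. Samples were grouped by their labels, and flow-cell codes came from the deposited tables' names. The members, gene lists and tests were chosen with earlier results of these data known.

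Values were analysed as log2(TPM + 1), which understates changes of low genes. The 16359 genes whose TPM reached 1 in no fewer than 2 samples were tested two-sided with limma 3.58.1 in R 4.3.3 (lmFit, eBayes with trend), all 44 screen samples in 1 fit, with Benjamini-Hochberg adjustment over all genes, and every adjusted p in the text is limma's. Both doses of a compound stood in for replicates. The labels do not say that replicates were separate cultures, so p-values measure only the spread between these samples. In data simulated for LAQ824 (16359 genes) 83 of 100 genes changed by 1 on the log2 scale and 25 of 100 with a smaller change were called, with 5 false calls. The simulated noise was independent between samples and held no flow-cell effect. Its false calls therefore do not measure errors from flow cell or from DMSO samples that are not separate. Conditions with 1 sample got no p.

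Named were the stalk proteins, paralog copies and parents, RPS4X, up to 3 called members per direction and compound, the 3 most and least variable, the 3 highest and lowest, the 2 genes on either side of the level, 5 other genes by correlation, and up to 2 called genes per direction of each list under the compound with most member calls, MC1568. RPL38, RPL30, RPS15 and RPL13 under N1302 or entinostat, RPL23A, RPL24, RPL4 and RPL6, RPS6 and the other matching names were named after values were seen. Some genes that this rule names are not reported here.

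Read numbers are the smallest whole numbers that fit the TPM steps (within 0.001 reads for 23645 of 23645 genes above 0). The procedure was adjusted after the real values had been seen, so they are approximate and served only for depth, the comparison of DMSO samples and 1 added alternative (voom). G + C content came from canonical GENCODE 44 transcripts on GRCh37. Tables were made with Python 3.11.15, numpy 2.4.6 and pandas 2.3.3. Alternatives covered the pseudocount, scaling, filters, samples in the fit, flow-cell code, dose, fold and left-out controls.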

Additional observations from a re-analysis of the deposited data

How the results depend on the processing

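Requiring at least 2-fold left 4 of 192 higher and 4 of 206 lower calls, with 1 each for bromosporin, LAQ824, SGC-CBP30 and UNC0638 (higher) and for GSKLSD1, LAQ824, MC1568 and Trametinib (lower), and 0 for OJI-1. Within the flow-cell code 84 were higher and 66 lower, with 0 lower for GSKLSD1, 0 higher for OJI-1 and 1 higher for UNC0638, and the mean change of the members under GSKLSD1 was -0.23. DMSO averaged per concentration gave 126 lower in all and 10 higher for OJI-1. OJI-1, with 21 higher, had 12 with median-ratio scaling, 13 without a filter, 0 with its own samples and DMSO alone, 0 at the high dose, 38 at the low dose and 12 with voom, chosen after seeing the data. UNC0638 had 9 with its own samples and DMSO alone, and bromosporin 23 at the low dose. Leaving out each DMSO sample in turn gave 152 to 185 higher and 175 to 179 lower in all, 45 to 47 for bromosporin, 43 to 44 for LAQ824, 28 to 29 for UNC0638 and 12 to 15 for OJI-1 (higher), and 43 to 48 for GSKLSD1 and 54 to 57 for MC1568 (lower). Mean changes with median-ratio scaling were 0.33 for bromosporin, 0.29 for LAQ824, -0.43 for GSKLSD1, 0.20 for OJI-1, 0.25 for UNC0638, 0.75 for N1302, and 0.26 and 0.082 for entinostat at 6 and 24 h, the last changing from -0.01. The median over members was 0.25 for LAQ824. With the 6 h DMSO samples of the N1302 experiment and the time course together as reference, which sets treated samples against DMSO of another experiment, the mean was 0.34 for N1302 and 0.21 for entinostat, with 2 members higher for entinostat at 6 h. Past 1.5-fold, median-ratio scaling gave 52 higher for N1302, and 3 higher and 1 lower for entinostat at 24 h, and a fold of 2 left 4, 0 and 0. Scaling to oxidative phosphorylation or proteasome genes gave 3987 and 3725 lower genes with 2-fold, against 7037 with the members.

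Over 85 named gene and compound pairs and 16 alternatives, 1036 calls were kept, 306 were lost in the same direction and 18 changed direction. Alternatives close to the main fit fill this total, a dose covariate keeping all 85. With DMSO averaged per concentration 59 of the 85 were kept and 26 were lost in the same direction. Within the flow-cell code only 12 of the 85 were kept and 55 were lost in the same direction. All 18 changes of direction arose there. These were RPL39 under LSD519 (-0.066), LSD690 (-0.066), Merck60 (-0.016), PFI-2 (-0.056), SGC-CBP30 (-0.068), SGC0946 (-0.14), Trametinib (-0.069) and UNC1999 (-0.048), RPL9 (-0.058) and RPL22 (-0.035) under LSD690, RPL8 under OJI-1 (0.055), SGC-CBP30 (0.11) and UNC0638 (0.034), RPS19 under SGC-CBP30 (0.071), UNC1999 (0.016) and WT161 (0.016), RPL35 under SGC-CBP30 (0.034) and RPL36 under UNC0638 (0.025). The cause was not tested. Between the DMSO concentrations a replicate block gave 0 members, as without it. Few samples limit the tests, and low read numbers limit RPS10. Dixon's criterion flagged no value in the 17 groups of values examined. No treated sample had a replicate of its own dose and time, so none could be checked against its own condition. Screen DMSO values of genes such as RPL39 split by flow-cell code, and a criterion based on gaps can then hardly set a DMSO sample apart. The check therefore does not show that unusual samples were absent.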
